A study of Danio rerio with 18 samples.

Results

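The genes of muscle contraction were followed in whole zebrafish larvae exposed to bisphenol-A (BPA), a plastics monomer with weak estrogenic activity. Members were taken by symbol: myosin light and heavy chains (myl, myh), myosin-binding protein C (mybpc), the troponins (tnnc, tnni, tnnt), tropomyosins (tpm), alpha-actinins (actn), skeletal and cardiac actins (acta1, actc), muscle creatine kinases (ckm), titin (ttn), desmin (desm), calsequestrin (casq), ryanodine receptors (ryr), SERCA calcium pumps (atp2a), parvalbumins (pvalb), smyd1 and tcap, without mylk and mylip. The arrays held 104 such spots for 81 genes, of 22980 probes and 9183 named genes in all, and each gene was followed by its brightest spot. By known site of expression, 34 members were classed as skeletal, 14 as cardiac, 17 as shared by striated muscles and 15 as smooth-muscle or non-muscle genes. The remaining member, tpmt.1, is a thiopurine methyltransferase that met the prefix only and has no known part in contraction. Of 117 annotated zebrafish genes that meet the prefixes, 36 had no named spot (among them both titins, the ryanodine receptors, tcap, mybpc3 and smyd1b). None of these could be followed here, and whether an unnamed spot measures any of them is not known.

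Larvae received BPA at 500, 1500 or 4500 µg/L in water with 0.05% ethanol over 7 days, beginning 3 hours after fertilization, and control larvae received the ethanol alone. RNA of 50 pooled whole larvae was labelled with Cy5 on each array, and a common RNA from adult fish, males to females 9 to 1, was labelled with Cy3, with no dye swap. A value is the log2 ratio of larval over adult reference signal. There were 4 control arrays, 5 at 500, 3 at 1500 and 4 at 4500 µg/L after 2 pairs of scans with nearly the same values were averaged. The labels do not give the genotype or strain. The study's text calls the larvae of the array experiment wild-type and names no strain. The larvae were whole animals, so a lower muscle share and a lower RNA level per muscle cell cannot be told apart.

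In the sarcomere, myosin heavy chains with their light chains pull on actin filaments. Calcium released from the sarcoplasmic reticulum binds troponin C, which moves troponin I, troponin T and tropomyosin off the actin sites, and SERCA pumps then take the calcium back. Fast skeletal fibres and heart muscle use different paralogs of nearly every one of these proteins, and in the zebrafish heart atrium and ventricle use different myosin heavy chains. Parvalbumin buffers calcium in fast fibres, and creatine kinase restores ATP at the myofibril.

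Array quality set the limits of every value below. A spot is called well above background where at least 50% of its pixels exceeded the local Cy5 background by 2 SD, which held for 12.7% to 67.2% of spots per scan. Of the 81 members, 35 reached this on at least 8 of the 16 arrays and none was saturated. Of 9 skeletal muscle markers used as a check, 6 were well above background on at least 8 arrays, ckma and mylpfa on all 16. The markers acta1a, tnnt3b and atp2a1 fell short of 8. Of 6 listed heart markers, 5 were matched by symbol. Of these, 3 reached 8 arrays, with nppa on all 16, whereas the heart light chain myl7 was so on 2. The listed marker vmhc is now annotated as myh7 and was not matched under its old name. Its spots are described below among the members. The median Cy3 background was under 150 scanner units on 2 of 3 arrays exposed to 1500 µg/L, on 2 of 4 exposed to 4500 µg/L, and on no control array and no array at 500 µg/L. Some results at the higher concentrations are therefore given also without these 4 arrays, which leaves 1 array at 1500 µg/L. No gene on the 9 lists of cell type markers (skeletal muscle, heart, neurons, pancreas, liver, blood, ovary, epidermis and connective tissue) was called at any concentration. Of all probes, 0% were called at 500, 0.0131% at 1500 and 3.08% at 4500 µg/L with every spot. With the kept spots these shares were 0%, 0% and 0.0258%. Calls were this rare over all probes, so the lack of a called marker says little about tissue shares.

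The contraction genes as a group showed no called difference at 500 or 1500 µg/L and 1 at 4500 µg/L. With only the spots the authors kept, 23 members could be tested, and none passed an adjusted p of 0.05 in limma at any concentration. Over all 3878 probes so tested, 0% were called at 500, 0% at 1500 and 0.0258% at 4500 µg/L. At an unadjusted p under 0.05, no member passed at 500 µg/L, 1 was higher and 3 were lower at 1500 µg/L, and 1 was higher and 4 were lower at 4500 µg/L, against 1.6%, 7.53% and 20.9% of all probes. The lowest adjusted p of a kept member was 0.17, for myh6 at 4500 µg/L. With every spot included, all 81 members were tested and actc2 alone was called, at 4500 µg/L, against 0%, 0.0131% and 3.08% of all probes at the 3 concentrations. At an unadjusted p under 0.05, 4.94% of members passed at 500, 8.64% at 1500 and 21.0% at 4500 µg/L, beside 3.72%, 11.2% and 21.8% of all probes. One array carried weight here: without replicate 4 of 4500 µg/L, 8 of 81 members, among them myh6, myh7, myh7l, tpm4a, actc2 and desma, and 2888 of 22980 probes were called at 4500 µg/L with every spot, and 1 of 22 members, myh6, beside 433 of 3618 probes, with the kept spots. Without control replicate 1, 2 or 3, or without replicate 1 or 2 of 4500 µg/L, no member was called with every spot. Over all 22980 probes, these refits called 122, 104, 88, 47 and 25.

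Across the 4 groups together, limma's F-test at a false discovery rate of 0.2 passed 5 members with every spot (myh7l, actn3a, ckmt1, actc2 and desma) of 81, beside 6.29% of all probes. With the kept spots it passed no member, beside 0.0516% of probes. The count with every spot ran from 0 without replicate 2 of 4500 µg/L to 22 without replicate 4, and was 2 or 3 without control replicate 1, 2 or 3, replicate 4 or 5 of 500 µg/L, replicate 1 or 3 of 1500 µg/L, or replicate 3 of 4500 µg/L, 1 without its replicate 1, 9 without control replicate 4 and 11 without replicate 2 of 1500 µg/L. Over all 22980 probes the same refits passed 235 (without replicate 2 of 4500 µg/L) to 4450 (without its replicate 4). None of these 5 genes was well above background on any control array.

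Most of the members higher at 4500 µg/L at an unadjusted p under 0.05 were barely detected in the controls. Of these 12 members, 9 were not well above background on any control array. Among all 81 members, 42 were well above background on at least 1 array of both groups, and 16 at 4500 µg/L only. Another 6 were well above background in the controls only, and 17 in neither group. The share among all higher probes was not computed. The 3 higher members measured in both groups were myh6, the atrial myosin heavy chain, tpm4a, the cardiac tropomyosin, and myl9a, a smooth-muscle regulatory light chain named here after its values were seen. Among the 5 lower members, 3 were measured in both groups, namely myh7, the ventricular heavy chain, tnnc1b, a troponin C of slow and cardiac type, and tnni2b.2, a fast-type troponin I. The 35 members well above background on at least 8 arrays had a median log2 difference of 0.07 at 500, -0.18 at 1500 and -0.16 at 4500 µg/L, with 26 of 35 below 0 at 1500 and 24 of 35 at 4500 µg/L. All 6456 probes with that detection had medians of 0.02, -0.05 and -0.13, with 55.0% and 61.5% below 0. The 46 dimmer members had medians of -0.05, 0.06 and 0.26, and the 16524 dimmer probes 0.01, 0.07 and 0.08.

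**Figure D1:**
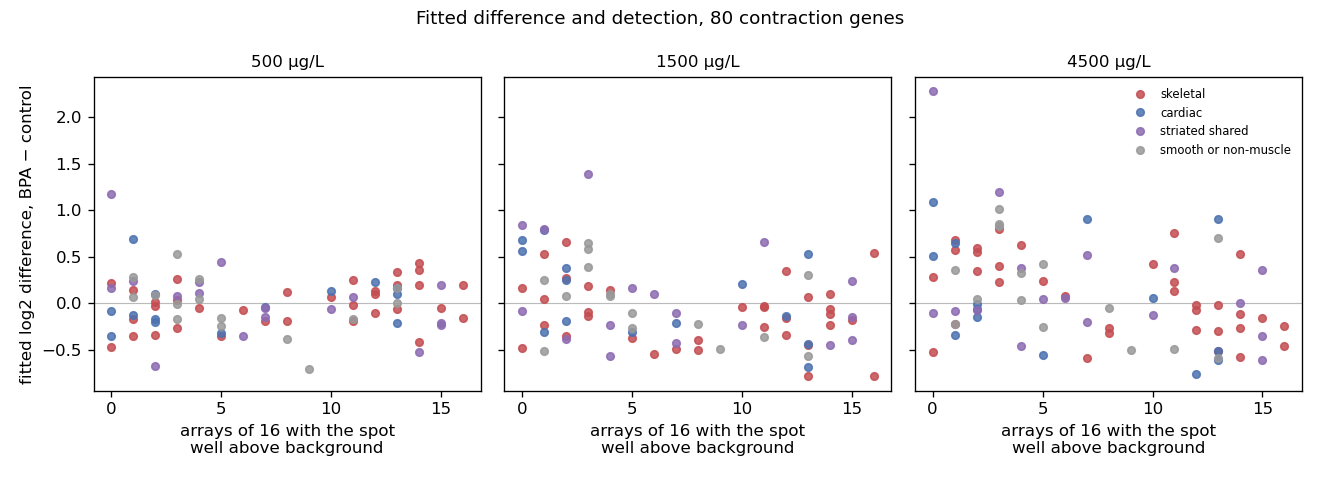
Fitted log2 difference between BPA and control arrays (vertical axis) for 80 contraction genes at each concentration, against the number of the 16 arrays on which the spot was well above background (horizontal axis), with 1 point per gene coloured by class. At 4500 µg/L, members detected on few arrays lie mostly above 0 and 24 of the 35 detected on at least 8 arrays lie below it.

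Over the full lists, the skeletal and cardiac class medians overlapped the control arrays at every concentration. The 5 cardiac members well above background on at least 8 arrays had a median log2 difference of -0.51 at 4500 µg/L, with 3 below 0. All probes so detected had -0.13. That cardiac median is the value of 1 gene, tnni4b.3, which was at -0.13 without control replicate 4. By array, the median of the 5 was -0.56, -0.25, -0.28 and -0.04 at 4500 µg/L. On control arrays it was -0.01, -0.12, -0.23 and 0.16. The 5 cardiac members with enough kept spots had a median of -0.59, beside -0.19 for all kept probes. The skeletal median log2 difference over 34 genes was -0.03 at 500, -0.13 at 1500 and 0.03 at 4500 µg/L. The cardiac median over 14 genes was -0.06, 0.04 and -0.03, and the median of all probes 0.02, 0.04 and 0.02. Taken array by array, the skeletal median relative to the control mean lay between -0.18 and 0.19 on control arrays, -0.07 and 0.08 at 500, -0.28 and -0.05 at 1500 and -0.14 and 0.11 at 4500 µg/L. The cardiac median lay between -0.15 and 0.28 on control arrays, -0.08 and 0.09 at 500, 0.10 and 0.26 at 1500 and -0.32 and 0.31 at 4500 µg/L. No test was run on these medians, since the genes of an array are not replicates.

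The difference between the classes within each array stood apart at 1500 µg/L only for the full lists. The skeletal median minus the cardiac median was -0.32, -0.28 and -0.38 at 1500 µg/L, below all 4 control arrays at -0.03, 0.26, -0.15 and -0.22. Over the 19 skeletal and 5 cardiac members well above background on at least 8 arrays, it was -0.03, -0.08 and 0.10 at 1500 µg/L, inside the controls at -0.18, 0.37, 0.11 and -0.03. At 4500 µg/L the arrays gave 0.43, -0.08, -0.45 and -0.02 with all members, on both sides of the controls. Over the well-detected members they gave 0.65, 0.03, -0.15 and -0.01, with replicate 1 alone outside the controls. Over the well-detected members the class medians of the fitted differences were 0.10, -0.16 and -0.16 for skeletal and 0.13, -0.13 and -0.51 for cardiac genes. Of the members measured in both groups, 16 of 20 skeletal and 4 of 6 cardiac genes were below 0 at 1500 µg/L. At 4500 µg/L 13 of 20 and 3 of 6 were. Under the limit of at least 8 arrays, 55.0% and 61.5% of all probes were below 0 at these concentrations. No such share was computed for all probes measured in both groups.

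**Figure D2:**
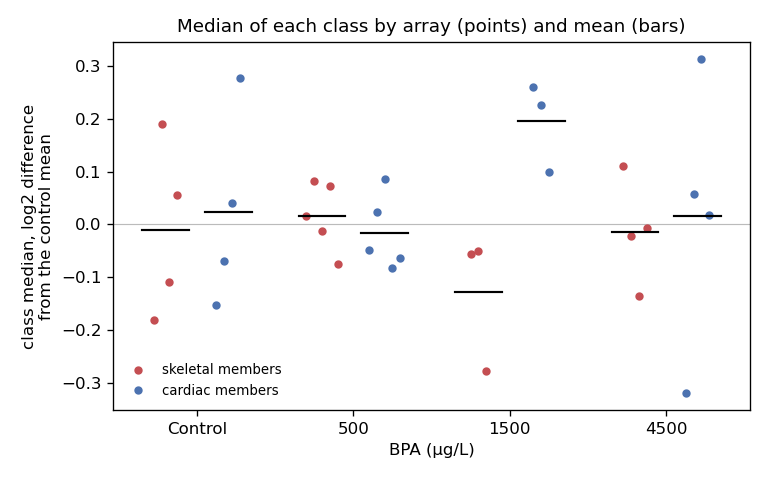
Median log2 difference from the control mean over the 34 skeletal and the 14 cardiac members on each array (points), by BPA concentration in µg/L, with the group mean as a bar. At 1500 µg/L the 3 skeletal points, -0.28 to -0.05, lie below the 3 cardiac points, 0.10 to 0.26, and each set overlaps the control points of its class.

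The bright fast-fibre genes mylpfa and actn3b had mean ratios below the controls at 1500 and 4500 µg/L, without passing the adjusted threshold with all arrays weighted equally. The fast regulatory light chain mylpfa was well above background on all 16 arrays. Its log2 ratio was -0.32, -0.03, -0.01 and -0.76 on the control arrays. At 500 µg/L it was -0.36, -0.06, -0.72, -0.42 and -0.63. At 1500 µg/L it was -1.16, -0.36 and -1.66, and at 4500 µg/L -0.19, -1.23, -0.77 and -0.77. The groups overlapped, with 2 of 3 arrays at 1500 and 3 of 4 at 4500 µg/L below every control. The fitted difference was -0.16 (SE 0.27) at 500, -0.78 (SE 0.31, adjusted p = 0.37 in limma) at 1500 and -0.46 (SE 0.29) at 4500 µg/L. The 2 lowest arrays at 1500 µg/L were those with a low Cy3 background, and without the 4 such arrays the difference at 1500 µg/L was -0.09. Array quality weights gave -1.04 there (adjusted p = 0.04 in limma).

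The Z-disc protein actn3b is the fast-fibre alpha-actinin that anchors actin filaments. Control arrays gave 0.83, -0.13, 0.21 and 0.79, those at 500 µg/L 0.86, 0.91, -0.18, 0.03 and 0.18, those at 1500 µg/L 0.04, -0.26 and -0.86, and those at 4500 µg/L 0.41, -0.55, -0.21 and -0.0004. The controls ranged more widely than the shift, and the groups overlapped at every concentration. The fitted difference was -0.06 (SE 0.29), -0.79 (SE 0.33, adjusted p = 0.40 in limma) and -0.51 (SE 0.31), and -0.69 at 1500 µg/L without the 4 arrays of low Cy3 background. Array quality weights called actn3b at 1500 µg/L with the kept spots, beside 12.8% of kept probes, and not with every spot. Its paralog actn3a was not well above background on any control array and on 1 at 4500 µg/L, so no fold is given for it, and its ratios were -0.78, 0.15, -0.80 and -0.39 in controls and 0.46, 0.04, 0.59 and 0.29 at 4500 µg/L.

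The fast-type troponin I genes had differences of both signs, none called. For tnni2b.2, well above background on all 4 control arrays and 2 of 4 at 4500 µg/L, the controls lay close together at -0.25, -0.21, -0.20 and -0.03. At 500 µg/L the ratios were 0.72, -0.09, 0.05, 0.10 and 0.12, at 1500 µg/L -0.75, 0.33 and -0.45, and at 4500 µg/L -1.29, -0.91, -0.60 and -0.22. Of the 4 arrays at 4500 µg/L, 3 were below every control and replicate 4 was inside their range. Of the 3 low arrays, replicates 2 and 3 were not well above background. The difference at 4500 µg/L was -0.58 (SE 0.27, adjusted p = 0.22 in limma), and -0.58 without the 4 arrays of low Cy3 background. The related gene tnni2b.1, also well above background on all controls, had fitted differences of 0.19, 0.09 and 0.53, the last of which was 0.16 without replicate 1 of 4500 µg/L. Of the tnni2a genes, tnni2a.4 had -0.20 at 500 and -0.59 (SE 0.30) at 4500 µg/L, and was not well above background on any array at 1500 µg/L. Neither tnni2a.2 nor tnni2a.3 was well above background on any control array.

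No other bright fast-fibre gene had an unadjusted p under 0.05. The fast heavy chain myhz1.1 had log2 differences of -0.05, -0.18 and -0.16 with SE 0.19 to 0.21, and its close paralogs, whose transcripts may also bind that spot, had no named spot apart from myhz2 at 0.34, 0.07 and -0.02 and myhc4 at 0.07, -0.04 and 0.42. The SERCA pump atp2a1l had 0.10, -0.34 and -0.29, and a second spot for it gave 0.04, -0.40 and -0.20. The parvalbumin pvalb2 had 0.43, -0.24 and -0.27, the tropomyosin tpm2 0.19, -0.45 and -0.30, and the essential light chain myl1 0.24, -0.04 and 0.75. Single arrays carried several of these values: myl1 at 4500 µg/L was 0.33 without replicate 3 of that group, pvalb2 there was 0.06 without control replicate 2, and tpm2 at 1500 µg/L was -0.82 without replicate 2 of that group. For the creatine kinase ckma, the brightest spot, on all 16 arrays, gave 0.20, 0.54 (0.21 without replicate 2 of 1500 µg/L) and -0.24, and a second spot, well above background on 13, gave -0.02, -0.52 and -0.39, so the 2 spots differed in sign at 500 and 1500 µg/L.

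**Figure D3:**
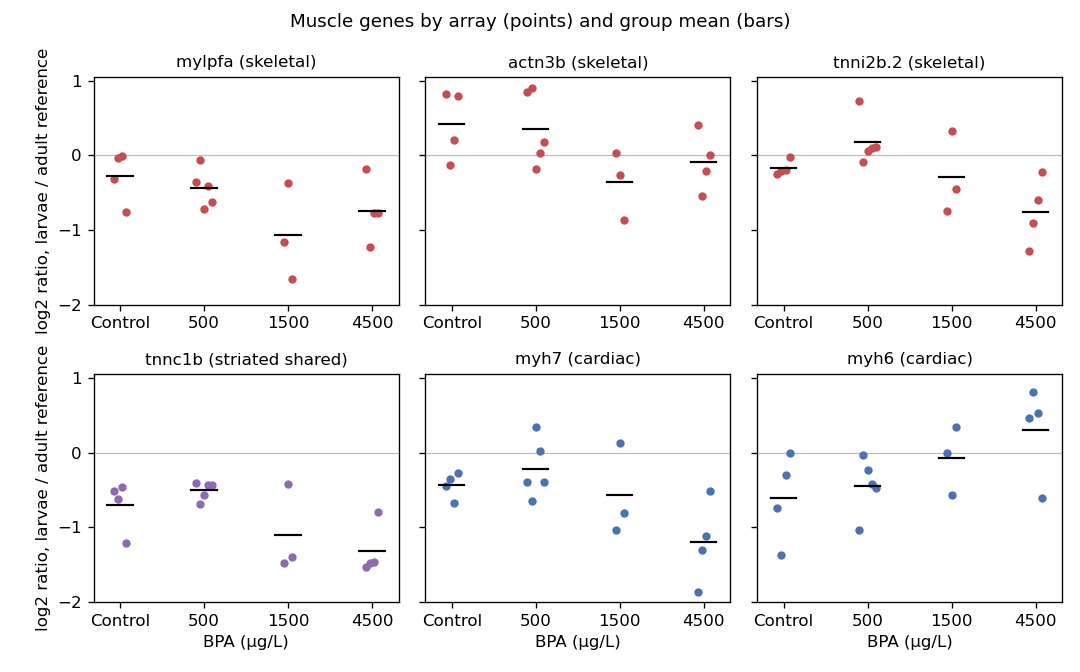
Log2 ratio of larval over adult reference signal on each array (points) and the group mean (bars) for 6 members well above background on some arrays of every group, by BPA concentration in µg/L. The mean of mylpfa, actn3b, tnni2b.2, tnnc1b and myh7 is lower and that of myh6 higher at 4500 µg/L than in controls, with at least 1 array at 4500 µg/L inside the range of the controls in every panel.

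The 2 main heart myosins had differences of opposite sign at 4500 µg/L, neither of them called with all arrays weighted equally. The atrial heavy chain myh6 had control ratios of -0.74, -1.37, -0.30 and -0.01. At 500 µg/L they were -1.04, -0.03, -0.24, -0.42 and -0.47, at 1500 µg/L 0.00, -0.57 and 0.34, and at 4500 µg/L 0.47, 0.81, 0.53 and -0.61. In the last group 3 of 4 arrays lay above every control, and replicate 4 lay inside their range. The fitted difference was 0.17 (SE 0.32), 0.53 (SE 0.36) and 0.91 (SE 0.34), a ratio of 1.87 to the controls at 4500 µg/L (adjusted p = 0.13 in limma with every spot). Without the 4 arrays of low Cy3 background it was 0.54, and without replicate 4 of 4500 µg/L it was 1.21 (adjusted p = 0.02). Array quality weights called myh6 at 4500 µg/L with the kept spots, beside 9.28% of kept probes, and not with every spot. The spot was well above background on 2 of 4 control arrays and all 4 at 4500 µg/L. The 2 controls not well above background were the 2 lowest, at -0.74 and -1.37.

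The ventricular heavy chain, named vmhc on the platform and myh7 in the present annotation, was represented by 6 spots. The brightest was at -0.45, -0.35, -0.68 and -0.27 in controls and at -0.39, -0.65, 0.34, 0.02 and -0.40 at 500 µg/L. It was at -1.03, 0.13 and -0.81 at 1500 µg/L and at -1.86, -1.31, -1.12 and -0.51 at 4500 µg/L. At 4500 µg/L 3 of 4 arrays lay below every control. This spot was well above background on 3 of 4 control arrays and on 2 of 4 at 4500 µg/L, and of the 3 low arrays replicates 2 and 3 were not well above background. The fitted difference was 0.22 (SE 0.29), -0.13 (SE 0.33) and -0.76 (SE 0.30, adjusted p = 0.15 in limma), and -0.75 at 4500 µg/L without the 4 arrays of low Cy3 background, or -0.99 (adjusted p = 0.04) without replicate 4. The second brightest spot, well above background on 10 arrays, gave -0.57 (SE 0.34) at 4500 µg/L. The other 4 were also below 0 but were not well above background on any array at that concentration, so no size is given for them. The spots assay 1 gene on the same arrays and are not independent of each other. Another cardiac heavy chain, myh7l, was not well above background on any array.

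**Figure D4:**
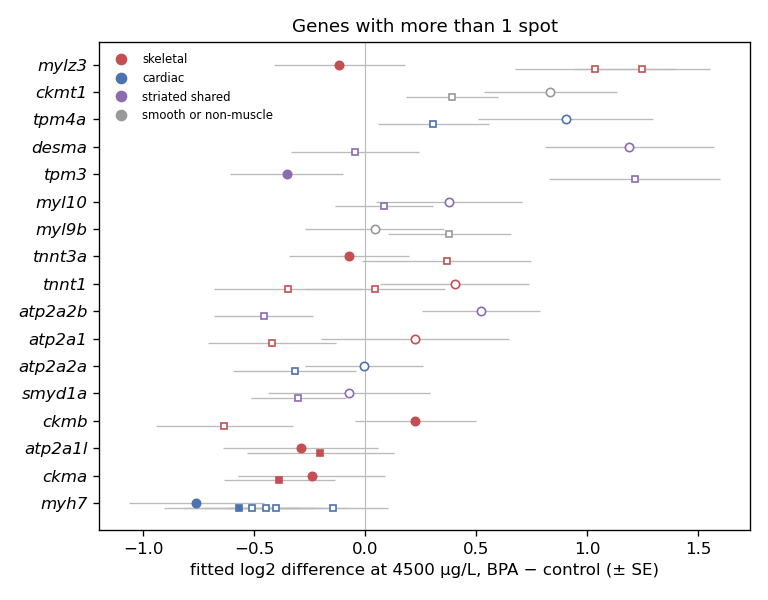
Fitted log2 difference at 4500 µg/L (± SE) for each spot of the 17 genes with more than 1 spot, with round points for the brightest spot and squares for the others, filled where the spot was well above background on at least 8 of 16 arrays. All 6 spots of myh7 lie below 0, whereas the spots of mylz3, desma and tpm3 lie on both sides of it.

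No troponin or tropomyosin gene of heart and slow muscle was called with all arrays weighted equally. With the kept spots, array quality weights called tnnc1b and tnni4a at 1500 µg/L and tnnc1b at 4500 µg/L. These weights called 12.8% and 9.28% of all kept probes at these concentrations. Among the bright genes of this kind, tnnc1b, tnni4a, tnni4b.3 and tpm3 had mean ratios below the controls at 4500 µg/L. The troponin C tnnc1b was among the brightest members, well above background on 15 arrays. Its control ratios were -0.52, -0.62, -0.46 and -1.21, and those at 500 µg/L -0.40, -0.69, -0.56, -0.43 and -0.44. At 1500 µg/L it was at -1.49, -0.42 and -1.40, and at 4500 µg/L at -1.54, -1.48, -1.47 and -0.79. At 4500 µg/L 3 of 4 arrays were below every control. The difference was 0.20 (SE 0.25), -0.40 (SE 0.28) and -0.61 (SE 0.26, adjusted p = 0.18 in limma), and -0.46 at 4500 µg/L without the 4 arrays of low Cy3 background. The troponin I genes tnni4a and tnni4b.3, classed as cardiac with some doubt, gave 0.10, -0.44 and -0.61 (SE 0.30 at 4500 µg/L) and -0.22, -0.69 and -0.51 (SE 0.31). Without replicate 2 of 4500 µg/L tnni4a was at -0.36 there, and without control replicate 4 tnni4b.3 was at -0.13. Their relative tnni4b.2 was not well above background on any control array and on 1 array in all. The cardiac troponin T tnnt2a gave 0.13, 0.21 and 0.06 with SE 0.23 to 0.26. The cardiac tropomyosin tpm4a had control ratios of -0.21, 0.39, 0.14 and -0.87 and 1.25, 1.44, 0.56 and -0.19 at 4500 µg/L. The difference was 0.90 (SE 0.40, adjusted p = 0.19 in limma). In each of these groups 2 of 4 arrays were well above background, and these were the 2 highest. The essential light chain myl4 was not well above background on any array at 1500 or 4500 µg/L.

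The actin actc2, the single called member, was not well above background on any of the 16 arrays, so no fold is given. The raw Cy5 signal was 293, 425, 344 and 294 scanner units in controls over backgrounds of 236, 336, 266 and 111, and 529, 622, 379 and 236 at 4500 µg/L over backgrounds of 305, 288, 234 and 190. Its log2 ratios were -2.56, -2.53, -2.51 and -1.45 in controls and -1.01, -0.70, -1.47, -0.41 and -1.86 at 500 µg/L. They were -0.92, -1.35 and -1.98 at 1500 µg/L and 0.40, 1.44, -0.28 and -1.50 at 4500 µg/L, where 3 of 4 arrays lay above every control. The adjusted p at 4500 µg/L was 0.02 in limma, 0.24 without the 4 arrays of low Cy3 background, and 0.06 to 0.08 when any of control replicates 1, 2 or 3 or 4500 µg/L replicates 1 or 2 was left out. The related actins actc1a and actc1b, among the brightest members, gave -0.21, 0.24 and 0.36 and -0.53, -0.44 and 0.00, with SE 0.27 to 0.42 and no unadjusted p under 0.05. At 4500 µg/L actc1a was at -0.07 without replicate 2 of that group, so its sign rested on 1 array.

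Exact permutation tests (two-sided) of mylpfa, actn3b, myh6, actc2 and tnnc1b against the controls at each concentration gave 15 p-values. The lowest was p = 0.040, for actc2 at 500 µg/L, and after Benjamini-Hochberg adjustment over the 15 exact p-values none was below 0.24. The smallest p such a test can give was 0.0079 at 500 µg/L and 0.029 at each of 1500 and 4500 µg/L.

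Several genes gave different answers on different spots. The light chain mylz3 had log2 differences of -0.42, -0.06 and -0.12 at its brightest spot, on 14 arrays well above background, and the first of these was -0.10 without control replicate 2. Its other 2 spots were not well above background on any control array. The dimmer of them passed the threshold at the highest concentration (adjusted p = 0.04 in limma), with ratios of -1.51, -1.56, -1.10 and -1.65 in controls and -0.17, 0.53, -0.20 and -1.01 at 4500 µg/L. Leaving out any of control replicates 1 to 3 or replicates 1 to 3 of 4500 µg/L ended that call (adjusted p of 0.072 to 0.126 in limma), as did leaving out the 4 arrays of low Cy3 background (adjusted p = 0.27). The tropomyosin tpm3 gave -0.23, -0.15 and -0.35 at its brightest spot, on 15 arrays, while a second spot with no control array above background had ratios of -1.76, -1.93, -2.34 and -1.38 in controls and 0.06, -0.16, -0.63 and -1.83 at 4500 µg/L. Both desma spots, for the intermediate filament desmin, were below that limit on all control arrays, and the brighter one had ratios of -0.38, -1.59, -0.72 and -0.67 in controls and 0.83, 0.29 and 0.51 at 1500 µg/L. Its paralog desmb, on 11 arrays, gave 0.07 (SE 0.27), 0.66 (SE 0.31, adjusted p = 0.44 in limma) and 0.38 (SE 0.29), and 0.01 for the middle concentration without the 4 arrays of low Cy3 background. Of the 17 genes with more than 1 spot, all spots had the same sign in 10 at 500, 7 at 1500 and 9 at 4500 µg/L.

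Among the smooth-muscle and non-muscle members, the tropomyosin tpm4b gave 0.16, -0.57 and -0.59 (SE 0.38 at 4500 µg/L) and myl9a 0.00, 0.30 and 0.70 (SE 0.29, adjusted p = 0.17 in limma). Without control replicate 4, tpm4b was at -0.19, -0.92 and -0.95, so its sign at 500 µg/L rested on 1 array. Array quality weights called tpm4b with the kept spots at 1500 and 4500 µg/L, beside 12.8% and 9.28% of kept probes. The parvalbumin pvalb7, lowest at 500 µg/L with -0.71 (SE 0.32, adjusted p = 1.0 in limma), had 1 array far below the rest: the 5 ratios were 0.11, 0.28, 0.18, -0.02 and -1.54, against 0.19, 0.28, 0.69 and 0.91 in controls, and without that array the difference was -0.38. The mitochondrial creatine kinase ckmt1 was not well above background on any control array. For tpmt.1, no control array was above that limit either.

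In the unexposed larvae, skeletal and cardiac members were on balance below the adult reference. For shared striated genes the sign depended on which members were counted. Among members measured on at least 1 control array, the mean log2 ratio was under 0 for 18 of 23 skeletal genes (median -0.32, from -0.84 for tnni2b.1 to 0.42 for actn3b) and 5 of 7 cardiac genes (median -0.32, from -0.61 for myh6 to 0.83 for tnni4b.3). Shared striated genes had a median of 0.11 (9 genes, 2 below 0), with tpm3 highest at 0.87 and tnnc1b lowest at -0.70. Smooth-muscle or non-muscle genes had a median of 0.05 (9 genes, 2 below 0). The detection limit uses the larval channel, so it leaves out genes that were dim in larvae. Over all 17 shared striated genes, the median ratio was -0.25, -0.07, -0.03 and -0.12 on the 4 control arrays. Over all 34 skeletal genes it was -0.45, -0.05, -0.26 and -0.09, and over all 14 cardiac genes -0.28, -0.26, -0.27 and -0.17. With no dye swap, dye and larval stage cannot be told apart in these ratios.

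Genes that act with the members were looked at in 4 lists. Of 25 measured sarcomere and Z-disc partners, 5 were higher and 3 lower at 4500 µg/L at an unadjusted p under 0.05, of 23 calcium-handling and neuromuscular genes 4 and 1, of 21 myogenic and cardiac regulators 0 and 4, and of 18 genes of muscle energy metabolism 3 and 5, beside 21.8% of all probes in either direction. None was called at any concentration after adjustment, beside 0%, 0.0131% and 3.08% of all probes at 500, 1500 and 4500 µg/L with every spot. The regulators with the lowest p were igf2b, an insulin-like growth factor, at -0.83 (SE 0.25, adjusted p = 0.07 in limma), hand2, a heart-field transcription factor, at -0.73 (SE 0.22, adjusted p = 0.08), and six1a, a muscle homeobox gene, at -0.80 (SE 0.29, adjusted p = 0.12). In the first list, the Z-disc calsarcins myoz1a and myoz1b gave 1.11 (SE 0.30, adjusted p = 0.05 in limma, above the threshold) and 0.61 (SE 0.21), each on 3 arrays well above background, and klhl41b, a myofibril-associated kelch protein, gave -0.63 (SE 0.22). In the second, chrng, an acetylcholine receptor subunit, and jph2, a junctophilin, had the lowest p but were well above background on 1 array each, and cacna1c, the cardiac L-type calcium channel, was at -0.66 (SE 0.25) on 9 arrays. In the last, pygma, muscle glycogen phosphorylase, was at 0.68 (SE 0.22), pfkmb, a muscle phosphofructokinase, at 0.99 (SE 0.34), on 8 and 4 arrays, and ak1, an adenylate kinase, was well above background on 1 array.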

How the data were processed

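Two-colour spotted oligonucleotide arrays were scanned by the authors, who deposited foreground and background intensity values of Cy5 and Cy3, the percent of pixels above background, and their own Lowess-normalized log2 ratios for the spots they kept. Cy5 held the larvae and Cy3 the adult reference, per the labels. Scans that shared 99.83% and 99.98% of Cy5 values (control replicates 4 and 5, 1500 µg/L replicates 3 and 4) were averaged as 1 array, whereas any other pair shared at most 0.48%. Intensities were background-corrected (normexp, offset 50) and loess-normalized within arrays in limma 3.58.1 (R 4.3.3). All 4 groups entered 1 fit with contrasts against the control, first on kept spots with at least 3 values in each group (3878 probes), the design after the methods, and then on every spot (22980 probes). Fold values in the report are from every spot unless kept spots are named. Calls use a Benjamini-Hochberg adjusted p under 0.05 over all probes. The fits were tested on simulated data. Where 1 group had no array well above background, a bound from the Cy5 channel was computed and is not printed, and where both had none, no fold is given.

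The platform named 11724 spots, of which 96 had several genes and were not named. 3560 matched a current symbol, 7996 an older name and 55 an accession. Members and lists were chosen with earlier results of these data known. Named members are mylpfa, actn3b, myh6, actc2 and tnnc1b, the 23 members with kept spots, the 5 lowest p at each concentration, and the 3 highest and 3 lowest skeletal and cardiac differences at 4500 µg/L with their other spots, and, of each list of partners, the 3 lowest p. The study's text calls the arrays biological replicates, each a pool of larvae. The same text states that several repeats of the experiment supplied these replicates, without saying which pool came from which repeat. The p-values therefore measure only the spread between these arrays. Their number limits the precision. The authors' normalized ratios were used as an alternative.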

Additional observations from a re-analysis of the deposited data

Results flagged for a closer look

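Of 120 sets of 4 or 5 arrays looked at (38 named members and both class medians in 3 groups, since the 3 arrays at 1500 µg/L are too few), 8 held 1 array far from the others, and chance alone flags about 1 in 20. On control replicate 4, actc2 was at -1.45 (the others -2.56 to -2.51) and tpm4b at -1.38 (the others -0.09 to 0.15). At 500 µg/L, replicate 5 had pvalb7 at -1.54 (the others -0.02 to 0.28) and myhz1.1 at -0.51 (the others -0.31 to -0.26), replicate 3 had myhc4 at -0.02 (the others -0.66 to -0.54), and replicate 1 had tnni2b.2 at 0.72 (the others -0.09 to 0.12). At 4500 µg/L, replicate 4 had tnnc1b at -0.79 (the others -1.54 to -1.47) and replicate 1 had tnni2b.1 at 0.79 (the others -0.72 to -0.61).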

How the results depend on the processing

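Of the members named by rule, the 32 spot differences with an unadjusted p under 0.05 kept their direction under all 863 refits tried. They were picked by p from these same arrays, which the refits reuse, so this gives no independent support. Against the adjusted threshold, 22 refits lost a call and 13 gained one. Some sizes came near 0, with desmb at 1500 µg/L down to 0.01 and mylpfa there to -0.09. The members outside the rule, myl9a among them, were not refitted singly. Of the fitted differences of the 38 named members at their brightest spots, whatever their p, 13 at 500, 13 at 1500 and 7 at 4500 µg/L turned sign when 1 array was left out, the largest of these being 0.36 in size (actc1a at 4500 µg/L). For the counts and medians, the cause of a change was not tested. With array quality weights and every spot, 2 members (mylpfa and desma) were called at 1500 µg/L and 2 (myh7l and actc2) at 4500 µg/L. With the kept spots, the weights called 6 at 1500 µg/L (tnni4a, actn3b, mylpfa, tpm4b, desmb and tnnc1b) and 3 at 4500 µg/L (myh6, tpm4b and tnnc1b). The F-test then passed 20 of 81 and 16 of 23, and the cardiac median at 4500 µg/L was 0.14. These weights called 2.8% and 12.8% of all probes at 1500 µg/L and 6.16% and 9.28% at 4500 µg/L, and the F-test 21.9% and 46.6%. With all 18 scans as separate arrays, 3 members were called at 4500 µg/L with every spot (7.15% of all probes) and the F-test passed 19 and 10 (21.6% and 20.7% of probes). The count with every spot at 4500 µg/L was 0 with no background correction (0.0174% of all probes) or plain subtraction (0.0132%). It was also 0 with the Cy3 background as a block (0.0783%) or the methods' t-test after adjustment (0%). The F-test passed 1 without background correction, 0 with subtraction and 0 with the Cy3 block, beside 2.65%, 0.0176% and 0.087% of probes. The methods' ANOVA passed 0, beside 0.279%. The refit without the 4 arrays of low Cy3 background was added after seeing the data. It leaves 1 array at 1500 µg/L, so no count is given for it. At their unadjusted threshold, the methods' t-test passed 5, 3 and 9 of 81 members with every spot and 1, 0 and 2 of 23 kept members at 500, 1500 and 4500 µg/L, beside 5.1%, 8.89% and 14.2% of all probes and 3.79%, 6.32% and 12% of kept probes. The F-test passed 10 with median centring (10.1% of all probes) and 3 with probes at least 1.5 times background (4.6%). With the replicate block, for numbers that do not pair the arrays (correlation of deviations -0.28 to 0.30 over 21 same-numbered pairs), it passed 1, actc2, beside 2.1% of all probes. No member count at a single concentration changed with that block. Without the 4 arrays, the cardiac median at 1500 µg/L was 0.23 and the skeletal median at 4500 µg/L 0.15, and with the Cy3 block the latter was 0.17. With position corrected along the spot order the cardiac median at 4500 µg/L was -0.21. From the authors' ratios the medians at 4500 µg/L were -0.12 (skeletal) and -0.36 (cardiac), and over members with enough kept ratios -0.27 and -0.59, a difference of 0.33. Over the members well above background on at least 8 arrays (also added later) the skeletal medians were 0.10 at 500 and -0.16 at 4500 µg/L, the cardiac 0.13, -0.13 and -0.51, and the difference at 4500 µg/L 0.35. Array by array, only replicate 1 of 4500 µg/L lay outside the controls in that difference.

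Leaving out each array in turn, the members called at 4500 µg/L ranged from 0 to 8 (every spot) and 0 to 1 (kept spots), and the F-test from 0 to 22 and 0 to 8, the highest each time without replicate 4 of 4500 µg/L. Over all probes, the same refits called 25 to 2888 (every spot) and 0 to 433 (kept spots). The F-test passed 235 to 4450 and 0 to 777 probes. The cardiac median at 1500 µg/L ranged from -0.089 to 0.24, the skeletal median at 4500 µg/L from -0.10 to 0.15, and their difference at 4500 µg/L from -0.19 to 0.16. Signal near background limits 46 of the 81 members.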
